A study of Danio rerio with 18 samples.

Results

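The proteasome genes measured on 18 arrays of sorted zebrafish cells numbered 53, out of 19247 named genes. A gene was a member when the array annotation gave its probe row a single symbol made of psm, a letter from a to g and a number. Psmb8a was not a member. Each gene was read from 1 row, the one with the highest mean over the 18 arrays, which for 49 members was the only row and for 4 members was chosen among several. A further 4 rows that carried a proteasome symbol together with other symbols were not used.

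The embryos were of the AB strain and all carried the transgenes Runx1+23:GFP and kdrl:DsRed2, a GFP reporter driven by an enhancer of runx1 and a DsRed2 reporter driven by the promoter of the endothelial receptor gene kdrl. Pools of embryos were kept from 2 to 3 days post fertilization (dpf) in 75 µM Lycorine with 1% DMSO, or in 1% DMSO alone, and cells were dissociated and sorted at 3 dpf. Lycorine is an alkaloid of Amaryllidaceae plants known as an inhibitor of protein synthesis. The 6 groups were Lycorine and DMSO cells of the Runx+ sort (labelled hematopoietic stem and progenitor cells, HSPC), the kdrl+ sort (labelled endothelial) and the negative sort (labelled all cell types), with 3 arrays each, numbered 1 to 3 as biological replicates. The reporters define the sorts. The labels do not say whether arrays that share a number came from 1 pool of embryos, and p-values measure the spread between these samples, which may be partly technical.

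The proteasome degrades proteins tagged with ubiquitin. Its barrel-shaped core particle has outer alpha rings that gate the entry and inner beta rings that carry the proteolytic sites, and a regulatory particle, made of a base with ATPases and a lid, binds, unfolds and feeds in the substrate. Immune cells of vertebrates can replace the catalytic beta subunits by inducible ones, and activators other than the regulatory particle can cap the core. The roles below are those known of the mammalian or yeast proteins. By symbol, the 53 members were 9 alpha and 7 beta core subunits, 7 ATPases, 4 other base subunits, 8 lid subunits, 5 inducible or tissue-restricted beta subunits, 3 activators, 1 inhibitor, 4 assembly chaperones of the core and 3 of the base, and 2 genes that match the name without being subunits. The 35 core, ATPase, base and lid subunits are called the 26S subunits here.

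Values are log2 intensities as the authors deposited them, with RMA named in their processing notes, and differences are on the same log2 scale, so that 1 unit is a 2-fold difference. Each difference is given with its standard error (SE) and comes from 1 limma fit of the 6 group means to all 18 arrays, with p-values adjusted over the 19247 genes and a threshold of 0.05. Array medians lay between 4.87 and 5.12, and 48 members had a mean above 5, while psme2, psmb9a, psmb11a, psmb12 and psmb13a lay at or under it. All 10 measured endothelial markers passed the test as higher in the kdrl+ sort against the negative sort, in each treatment. Of 10 HSPC markers 0 passed the test in Runx+ over negative cells in either treatment, a contrast that called 0.0104% of all genes under Lycorine and 0.0052% in DMSO. Itga2b, an integrin of thrombocytes and HSPC, read 4.91, 6.71 and 5.25 on Lycorine Runx+ arrays, against 4.38, 4.75 and 4.45 on Lycorine negative arrays, and 7.21, 5.93 and 6.90 on DMSO Runx+ arrays, against 4.53, 4.54 and 4.44 on DMSO negative arrays. Its Runx+ and negative arrays did not overlap in either treatment (adjusted p 1.0 under Lycorine and 0.0773 in DMSO), and gfi1aa also lay wholly higher in Runx+ cells of DMSO. Under Lycorine spi1b and tal1 lay wholly lower there, and runx1 overlapped in both treatments. Runx+ is used here as the name of the sort. Cells of a type and RNA per cell both enter a bulk value, so fewer cells and less RNA per cell cannot be told apart.

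The 26S subunits moved from array to array largely as one body in DMSO cells and less so with Lycorine, and the widest movement was among DMSO arrays. The mean deviation of the 35 genes from their own means was 0.14, 0.08 and -0.12 on the Lycorine Runx+ arrays, against 0.19, -0.34 and -0.21 on the DMSO Runx+ arrays. Lycorine kdrl+ arrays had 0.13, 0.04 and 0.09, against 0.37, -0.52 and 0.01 on DMSO kdrl+ arrays. Lycorine negative arrays had 0.22, -0.02 and 0.19, against 0.03, -0.33 and 0.05 on DMSO negative arrays. The 3 DMSO arrays numbered 2 were thus the lowest of their sorts and of the whole set. Of the 35 genes, 22 were lowest in array 2 among DMSO Runx+ arrays, 33 among DMSO kdrl+ arrays and 32 among DMSO negative arrays. Such counts were not particular to DMSO, as 28 were lowest in array 3 among Lycorine Runx+ arrays and 24 in array 2 among Lycorine negative arrays. Among Lycorine kdrl+ arrays the lowest values were spread, with 14, 10 and 11. The DMSO kdrl+ array numbered 1 was the highest of all, and 30 of the 35 genes peaked there within their group. On DMSO Runx+ array 1 the count of such peaks was also 30.

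**Figure D1:**
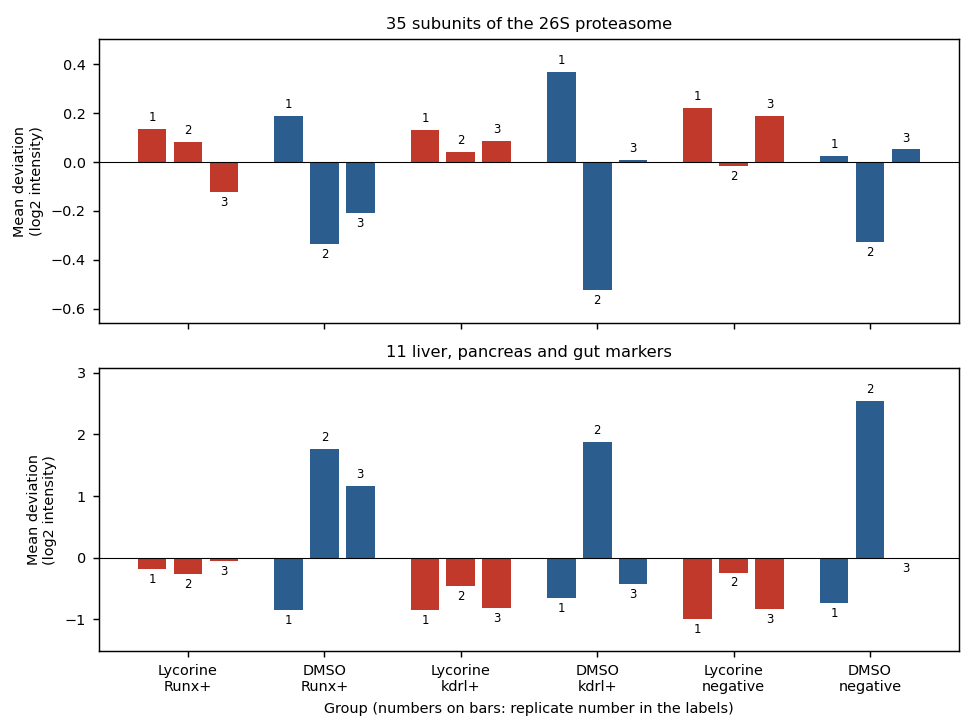
Mean log2 deviation on each array (y axis, log2 intensity) of the 35 subunits of the 26S proteasome (top) and of 11 liver, pancreas and gut markers (bottom), for Lycorine (red) and DMSO (blue) arrays of each sort, with the replicate number on each bar. The 3 DMSO bars numbered 2 reach -0.34, -0.52 and -0.33 in the top panel and 1.76, 1.88 and 2.54 in the bottom panel.

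The same arrays carried the highest signal of another tissue. The 11 measured markers of liver, pancreas and gut deviated by 1.76, 1.88 and 2.54 on the DMSO arrays numbered 2 of the Runx+, kdrl+ and negative sorts, and by 1.17 on DMSO Runx+ array 3. Lycorine arrays lay between -0.99 and -0.05 for these markers, and the remaining DMSO arrays between -0.84 and 0.00. Their part in the proteasome values was not tested.

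Within groups the members also went together. Over the deviations from group means, the mean correlation between pairs of genes was 0.57 for the 35 26S subunits across 18 arrays, against 0.03 for all 19247 genes. It was 0.26 across the 9 Lycorine arrays and 0.69 across the 9 DMSO arrays. Among the classes it was, across 18 arrays, 0.72 for the beta core, 0.66 for the ATPases, 0.64 for the lid and 0.41 for the alpha core. The other base subunits had 0.50, and -0.04 across the 9 Lycorine arrays. Core chaperones had 0.66, base chaperones 0.65, inducible beta subunits 0.24 and activators -0.04. Across the 9 Lycorine arrays the beta core had 0.49, the ATPases 0.15, the lid 0.43 and the alpha core 0.15. Across the 9 DMSO arrays these classes had 0.85, 0.84, 0.69 and 0.52. The inducible beta subunits went the other way, with 0.53 across Lycorine and 0.01 across DMSO arrays. Of these, psmb9a, psmb11a, psmb12 and psmb13a had means at or under 5, nearest to background. The mean deviation of this class ran from -0.39 to 0.30 over Lycorine Runx+ arrays. It ran from -0.09 to -0.05 over Lycorine kdrl+ arrays and from -0.23 to -0.01 over Lycorine negative arrays. Marker sets of cell types also went together across 18 arrays, with 0.78 for erythroid, 0.78 for muscle and 0.73 for liver, pancreas and gut markers. Neural markers had 0.70, endothelial 0.64, leukocyte 0.57, epidermis 0.41 and HSPC markers 0.19. These values share arrays and describe this set of arrays only. The spread of single members followed the same division, with a root mean square SD of 0.30, 0.24 and 0.23 in Lycorine Runx+, kdrl+ and negative cells and of 0.40, 0.54 and 0.33 in the DMSO groups of the same sorts. Over all genes the same SD was 0.33, 0.27 and 0.26 in the Lycorine groups and 0.54, 0.50 and 0.44 in the DMSO groups.

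**Figure D2:**
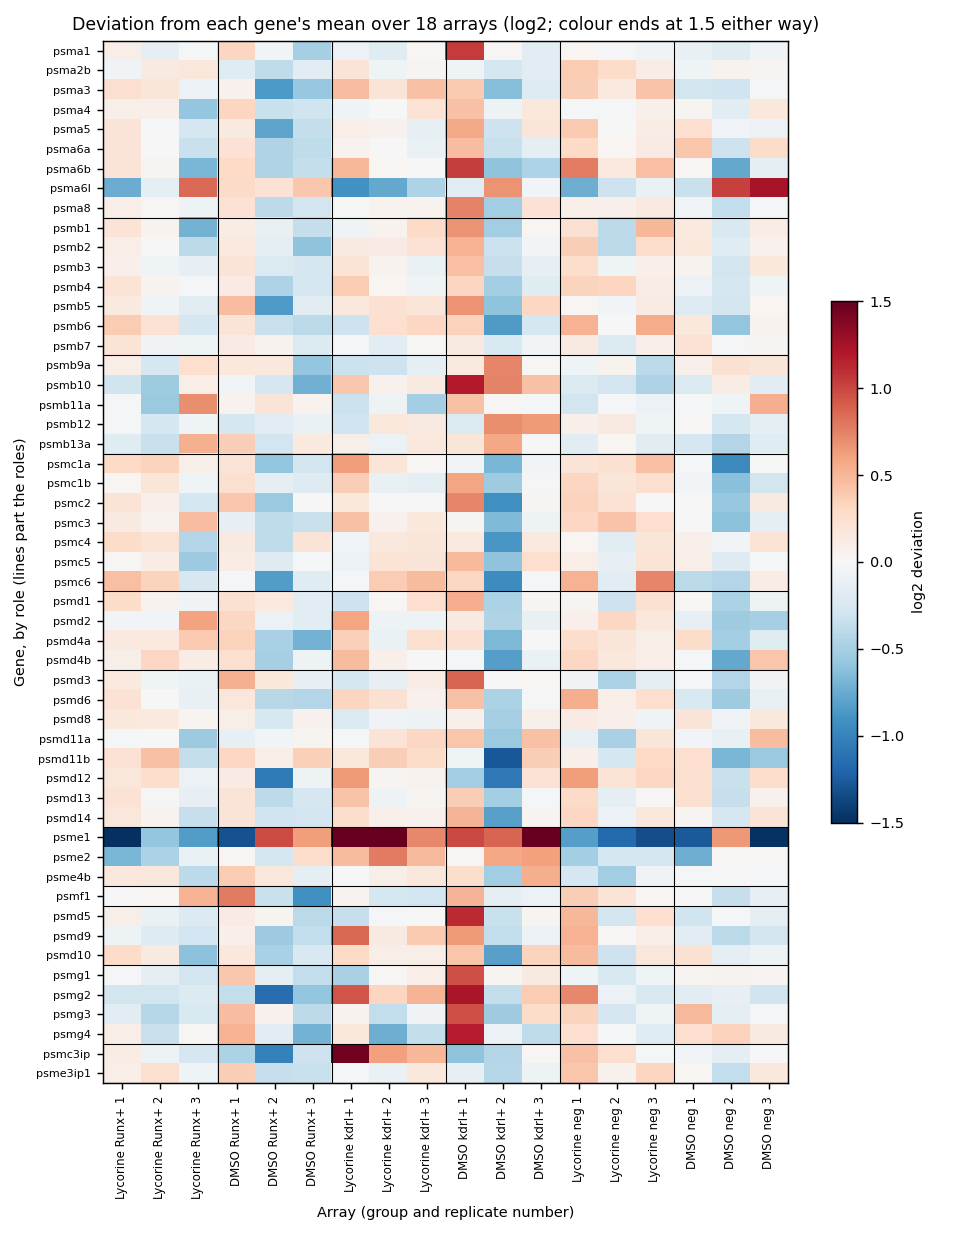
Deviation of each of the 53 proteasome genes (rows, grouped by role) from its own mean over 18 arrays (log2 intensity, colour) on each array (columns, Lycorine left of DMSO within each sort). The columns DMSO kdrl+ 2 and DMSO negative 2 are blue through most core, ATPase, base and lid genes, and DMSO kdrl+ 1 is red.

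The first question was whether Lycorine changed proteasome transcripts within a sort. No member passed the test in Runx+, kdrl+ or negative cells. Over all genes tested, limma called 0% in Runx+ cells, 0.052% (10 genes, 0.0156% higher and 0.0364% lower) in kdrl+ cells and 0% in negative cells. At an unadjusted p below 0.05 there were 2 members in Runx+ cells (13.5% of all genes), 5 in kdrl+ cells (11.4% of all genes) and 6 in negative cells (6.76% of all genes). The median difference of the 53 members was 0.09 in Runx+ cells, 0.06 in kdrl+ cells and 0.17 in negative cells, beside -0.04, -0.06 and -0.08 for all genes. In kdrl+ cells that median was -0.18 without the DMSO arrays numbered 2, with 16 of 53 members positive (30.2%, beside 40.3% of all genes), and -0.01 with cyclic loess. The 95% interval lay within 1 log2 unit either way for 43 members in Runx+ cells (66.2% of all genes), 37 in kdrl+ cells (67.1%) and 36 in negative cells (72.1%).

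Arrays of Lycorine and DMSO did not overlap for a few members in each sort. In Runx+ cells 4 members lay wholly higher with Lycorine (6.67% of all genes did) and 0 wholly lower (8.62%). In kdrl+ cells 5 lay wholly higher (5.66%) and 4 wholly lower (10.2%). In negative cells 14 lay wholly higher (5.13%) and 4 wholly lower (11.7%). Psmc3 and psma2b were the 2 members that lay wholly higher in each of the 3 sorts, psma2b by a very narrow step in kdrl+ cells. The difference was positive in all 3 sorts for 25 of 53 members (19.2% of all genes) and negative in all 3 for 7 (31.7% of all genes). Without the 3 DMSO arrays numbered 2, the counts were 12 positive (14.1% of all genes) and 11 negative (31.7% of all genes).

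Averaged over the 3 sorts, 9 Lycorine arrays against 9 DMSO arrays, 3 members were higher with Lycorine and 0 were lower. They were the ATPase psmc3, the core subunit psma3 and psmc3ip, which is no subunit. The fit took the 9 arrays of a treatment as independent. Deviations of same-numbered DMSO arrays went together, with a median correlation of 0.33, against -0.17 for different numbers. The p-values of this contrast may therefore be too small. Over all genes 2.29% were higher and 2.81% lower (5.1% called in either direction). At an unadjusted p below 0.05 there were 15 members (24.8% of all genes). The median difference of the members was 0.10, beside -0.07 for all genes, and 35 of 53 (66.0%) were positive, beside 40.4% of all genes. The 95% interval of the mean difference lay within 1 log2 unit for 51 members (91.3% of all genes), the exceptions being psma6l and psme1.

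Single arrays moved these counts. The count of members called was 1 (psmc3ip) without DMSO Runx+ 2, DMSO negative 2, Lycorine kdrl+ 1, Lycorine kdrl+ 3 or any of the Lycorine negative arrays, and 6 without DMSO Runx+ 1. When the 3 DMSO arrays numbered 2 were left out, 0 members passed the test, the median was -0.06 beside -0.09 for all genes, and 21 of 53 (39.6%) were positive, beside 35.6% of all genes (2.67% of them called). Relative to all arrays, 14 members had turned from a positive to a negative difference and 0 the other way. The medians of the classes were then 0.06 for the ATPases, 0.15 for the other base subunits, -0.03 for the lid, -0.10 for the alpha core, -0.05 for the beta core, -0.12 for the inducible beta subunits and -0.31 for the core chaperones.

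**Figure D3:**
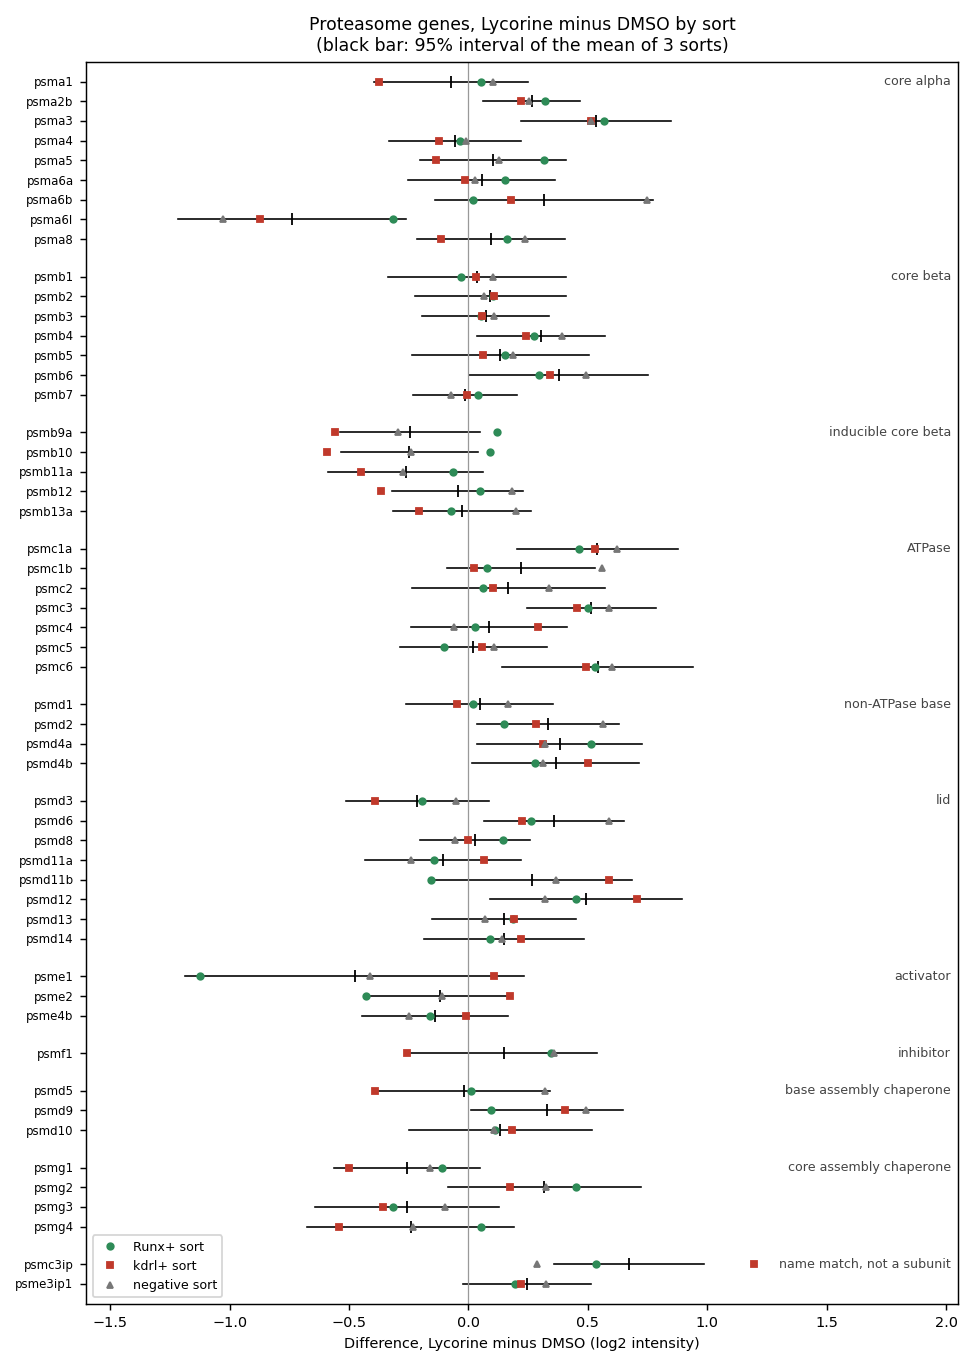
Difference between Lycorine and DMSO (x axis, log2 intensity) of the 53 proteasome genes (y axis, by role) in each sort (green circles Runx+, red squares kdrl+, grey triangles negative), with the mean of the 3 sorts (black tick) and its 95% interval (black bar). The intervals are not adjusted for the number of genes. Those of the called members psmc3, psma3 and psmc3ip lie right of 0. So do those of psmc1a, psmc6, psma2b, psmb4, psmb6, psmd2, psmd4a, psmd4b, psmd6, psmd9 and psmd12, which were not called. That of psma6l lies left of 0, and those of the 5 inducible beta subunits include 0.

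The ATPases form the ring that unfolds the substrate. All 7 had a positive mean difference, with a median of 0.22, and 1 of 7 passed the test. Without the DMSO arrays numbered 2, 4 of 7 were positive and the median was 0.06. In Runx+ cells psmc3 had log2 intensities of 11.38, 11.30 and 11.71 with Lycorine, against 11.12, 10.87 and 10.91 with DMSO. In kdrl+ cells psmc3 had log2 intensities of 11.69, 11.32 and 11.41 with Lycorine, against 11.29, 10.58 and 11.18 with DMSO. In negative cells psmc3 had log2 intensities of 11.57, 11.68 and 11.50 with Lycorine, against 11.25, 10.63 and 11.10 with DMSO. The 9 Lycorine arrays of psmc3 all lay above the 9 DMSO arrays, by a narrow margin, as 0.0623% of all genes did in this direction (0.13% in the other). Its mean difference was 0.51 ± 0.13, with a 95% interval of 0.24 to 0.78 and an adjusted p of 0.0308. The call was lost when any of 8 single arrays was left out, among them DMSO Runx+ 2 and DMSO negative 2, with an adjusted p of at most 0.0688, and the difference was 0.36 with an adjusted p of 0.0979 without all DMSO arrays numbered 2. The second row of psmc3 gave differences of 0.48, 0.18 and 0.61 in Runx+, kdrl+ and negative cells. When each gene was read as the mean of all its rows, psmc3 had a mean difference of 0.47 and was not called (adjusted p 0.0563).

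Psmc1a and psmc1b are paralogues of another ATPase subunit. Psmc1a in Runx+ cells had log2 intensities of 7.22, 7.25 and 7.0 with Lycorine and 7.11, 6.34 and 6.64 with DMSO. Psmc1a in kdrl+ cells had log2 intensities of 7.54, 7.10 and 6.94 with Lycorine and 6.87, 6.23 and 6.88 with DMSO. Psmc1a in negative cells had log2 intensities of 7.11, 7.15 and 7.37 with Lycorine and 6.89, 5.96 and 6.91 with DMSO. The DMSO array numbered 2 was the lowest value of psmc1a in each sort, and the treatments did not overlap in kdrl+ and negative cells. Its mean difference was 0.54 ± 0.16 (adjusted p 0.0581). In Runx+ cells psmc1b had log2 intensities of 7.13, 7.29 and 7.05 with Lycorine, against 7.35, 6.97 and 6.92 with DMSO. In kdrl+ cells psmc1b had log2 intensities of 7.47, 6.99 and 6.95 with Lycorine, against 7.70, 6.57 and 7.08 with DMSO. In negative cells psmc1b had log2 intensities of 7.43, 7.28 and 7.34 with Lycorine, against 7.07, 6.48 and 6.83 with DMSO. Psmc1b separated by treatment in negative cells and overlapped in the other sorts, with a mean difference of 0.22 ± 0.15. Psmc6 is the third ATPase with a difference of this size. Psmc6 in Runx+ cells had log2 intensities of 8.80, 8.68 and 8.11 with Lycorine and 8.32, 7.51 and 8.16 with DMSO. Psmc6 in kdrl+ cells had log2 intensities of 8.32, 8.72 and 8.82 with Lycorine and 8.66, 7.40 and 8.32 with DMSO. Psmc6 in negative cells had log2 intensities of 8.87, 8.18 and 9.08 with Lycorine and 7.95, 7.91 and 8.46 with DMSO. Its treatments overlapped in every sort, and the mean difference was 0.54 ± 0.19 (adjusted p 0.0967). The other ATPases, psmc2, psmc4 and psmc5, had mean differences of 0.17, 0.09 and 0.02, which were negative without the DMSO arrays numbered 2 (-0.13, -0.11 and -0.14).

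**Figure D4:**
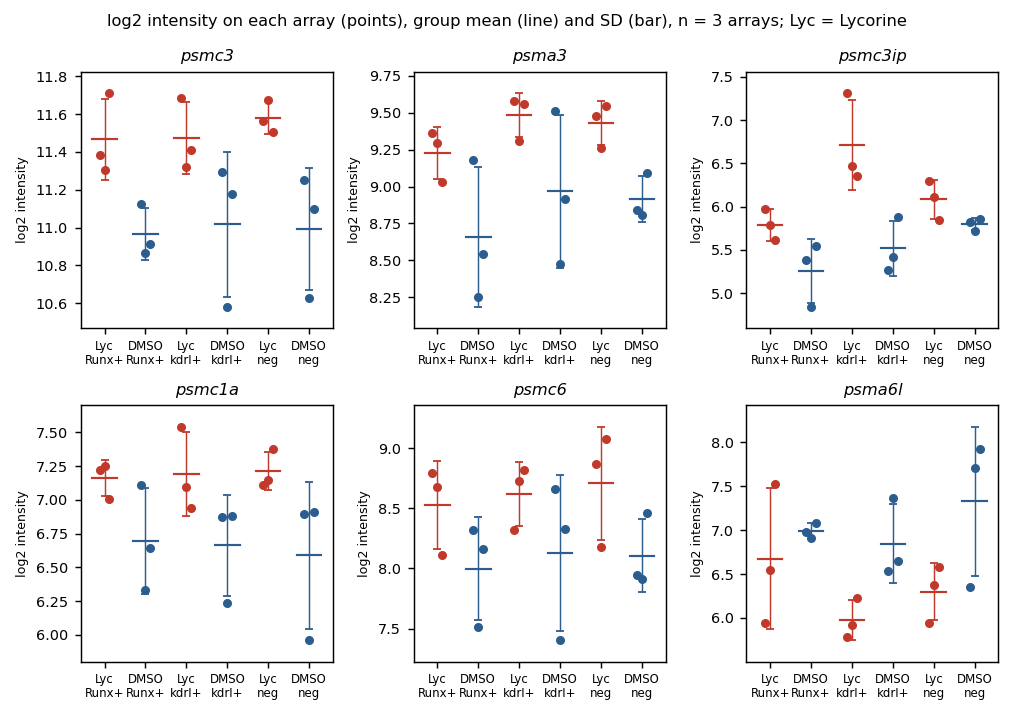
Log2 intensity (y axis) on each array (points) of 6 members in Lycorine (red) and DMSO (blue) cells of each sort, with group means (lines) and SDs (bars, n = 3 arrays). The 9 Lycorine points of psmc3 lie above its 9 DMSO points, and for psmc1a the lowest point of each DMSO group is array 2.

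Among the 9 alpha core subunits 1 was higher, 0 were lower and the median of the mean differences was 0.10 (-0.10 without the DMSO arrays numbered 2). Psma3 is an alpha ring subunit. In Runx+ cells psma3 had log2 intensities of 9.36, 9.30 and 9.03 with Lycorine, against 9.18, 8.25 and 8.55 with DMSO. In kdrl+ cells psma3 had log2 intensities of 9.58, 9.31 and 9.56 with Lycorine, against 9.51, 8.48 and 8.92 with DMSO. In negative cells psma3 had log2 intensities of 9.48, 9.26 and 9.55 with Lycorine, against 8.84, 8.81 and 9.09 with DMSO. The treatments of psma3 separated in negative cells, while DMSO array 1 reached the Lycorine values in Runx+ and kdrl+ cells. Its mean difference was 0.53 ± 0.15 (adjusted p 0.0473). Leaving out any of 15 of the 18 arrays ended the call, with an adjusted p of at most 0.0962, and without all DMSO arrays numbered 2 the difference was 0.37 (adjusted p 0.156). Psma2b in Runx+ cells had log2 intensities of 8.98, 9.17 and 9.20 with Lycorine and 8.86, 8.66 and 8.88 with DMSO. Psma2b in kdrl+ cells had log2 intensities of 9.23, 8.98 and 9.07 with Lycorine and 8.98, 8.77 and 8.88 with DMSO. Psma2b in negative cells had log2 intensities of 9.42, 9.32 and 9.15 with Lycorine and 8.97, 9.09 and 9.07 with DMSO. Each Lycorine value of psma2b lay above the DMSO values of its sort, by small steps, and in kdrl+ cells by less than the second decimal shows. The mean difference of 0.26 ± 0.10 did not pass the test (adjusted p 0.106).

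Psma6a, psma6b and psma6l carry the number of 1 alpha subunit. In Runx+ cells psma6l had log2 intensities of 5.94, 6.55 and 7.53 with Lycorine, against 6.98, 6.91 and 7.08 with DMSO. In kdrl+ cells psma6l had log2 intensities of 5.78, 5.92 and 6.22 with Lycorine, against 6.53, 7.36 and 6.65 with DMSO. In negative cells psma6l had log2 intensities of 5.95, 6.37 and 6.58 with Lycorine, against 6.35, 7.71 and 7.92 with DMSO. Psma6l was the member with the lowest mean difference, -0.74 ± 0.23 (adjusted p 0.0658), and its treatments separated in kdrl+ cells and overlapped in the other sorts. All 3 rows of psma6l had negative differences in every sort. Psma6a in Runx+ cells had log2 intensities of 8.37, 8.17 and 7.84 with Lycorine and 8.39, 7.73 and 7.80 with DMSO. Psma6a in kdrl+ cells had log2 intensities of 8.22, 8.17 and 8.07 with Lycorine and 8.64, 7.85 and 8.02 with DMSO. Psma6a in negative cells had log2 intensities of 8.48, 8.20 and 8.30 with Lycorine and 8.59, 7.86 and 8.45 with DMSO. Psma6a overlapped between treatments in every sort. In Runx+ cells psma6b had log2 intensities of 8.04, 7.89 and 7.17 with Lycorine, against 8.15, 7.40 and 7.50 with DMSO. In kdrl+ cells psma6b had log2 intensities of 8.35, 7.88 and 7.84 with Lycorine, against 8.89, 7.25 and 7.39 with DMSO. In negative cells psma6b had log2 intensities of 8.62, 8.0 and 8.30 with Lycorine, against 7.88, 7.08 and 7.71 with DMSO. The psma6b values separated in negative cells, and DMSO kdrl+ array 1 held the highest value. Mean differences were 0.05 ± 0.15 for psma6a and 0.32 ± 0.22 for psma6b, and neither passed the test. The remaining alpha genes psma1, psma4, psma5 and psma8 had mean differences between -0.07 and 0.10.

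Of the 7 constitutive beta subunits 0 passed the test, and 6 had a positive mean difference with a median of 0.09. Without the DMSO arrays numbered 2, 3 of 7 were positive and the median was -0.05. Psmb6 and psmb5 are catalytic and psmb4 is structural. Psmb4 in Runx+ cells had log2 intensities of 10.38, 10.22 and 10.15 with Lycorine and 10.30, 9.71 and 9.93 with DMSO. Psmb4 in kdrl+ cells had log2 intensities of 10.55, 10.20 and 10.12 with Lycorine and 10.49, 9.66 and 9.99 with DMSO. Psmb4 in negative cells had log2 intensities of 10.51, 10.49 and 10.29 with Lycorine and 10.09, 9.91 and 10.11 with DMSO. The treatments of psmb4 separated in negative cells, and its mean difference was 0.30 ± 0.13 (adjusted p 0.155). In Runx+ cells psmb6 had log2 intensities of 10.92, 10.76 and 10.28 with Lycorine, against 10.73, 10.20 and 10.13 with DMSO. In kdrl+ cells psmb6 had log2 intensities of 10.22, 10.79 and 10.85 with Lycorine, against 10.88, 9.68 and 10.27 with DMSO. In negative cells psmb6 had log2 intensities of 11.06, 10.54 and 11.09 with Lycorine, against 10.69, 9.94 and 10.59 with DMSO. Each sort overlapped for psmb6, with DMSO kdrl+ array 2 its lowest value, and the mean difference was 0.38 ± 0.18 (adjusted p 0.199). Psmb5 in Runx+ cells had log2 intensities of 8.14, 7.94 and 7.83 with Lycorine and 8.46, 7.15 and 7.84 with DMSO. Psmb5 in kdrl+ cells had log2 intensities of 8.15, 8.23 and 8.18 with Lycorine and 8.67, 7.39 and 8.31 with DMSO. Psmb5 in negative cells had log2 intensities of 8.03, 7.96 and 8.12 with Lycorine and 7.80, 7.72 and 8.03 with DMSO. Psmb5 varied more among DMSO than among Lycorine arrays in each sort, and DMSO kdrl+ array 1 was its highest value. Its mean difference was 0.13 ± 0.18, and -0.12 without the DMSO arrays numbered 2. Psmb1, psmb2, psmb3 and psmb7, the last of them also catalytic, had mean differences between -0.01 and 0.09.

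The 4 other base subunits had a median mean difference of 0.35 (0.15 without the DMSO arrays numbered 2) and 0 of 4 passed the test. Psmd2 and psmd1 are scaffolds of the base, and psmd4 is a receptor for ubiquitin chains, present here as the paralogues psmd4a and psmd4b. In Runx+ cells psmd2 had log2 intensities of 9.60, 9.61 and 10.25 with Lycorine, against 9.96, 9.56 and 9.49 with DMSO. In kdrl+ cells psmd2 had log2 intensities of 10.23, 9.57 and 9.57 with Lycorine, against 9.79, 9.20 and 9.54 with DMSO. In negative cells psmd2 had log2 intensities of 9.72, 9.96 and 9.81 with Lycorine, against 9.53, 9.12 and 9.14 with DMSO. The psmd2 treatments separated in negative cells. Psmd4a in Runx+ cells had log2 intensities of 7.52, 7.52 and 7.78 with Lycorine and 7.72, 6.89 and 6.67 with DMSO. Psmd4a in kdrl+ cells had log2 intensities of 7.74, 7.29 and 7.62 with Lycorine and 7.61, 6.71 and 7.38 with DMSO. Psmd4a in negative cells had log2 intensities of 7.64, 7.57 and 7.47 with Lycorine and 7.66, 6.87 and 7.20 with DMSO. Lycorine values of psmd4a varied less than DMSO values, whose array 1 reached into the Lycorine range in each sort. In Runx+ cells psmd4b had log2 intensities of 7.85, 8.08 and 7.88 with Lycorine, against 8.02, 7.27 and 7.69 with DMSO. In kdrl+ cells psmd4b had log2 intensities of 8.24, 7.84 and 7.77 with Lycorine, against 7.74, 6.93 and 7.66 with DMSO. In negative cells psmd4b had log2 intensities of 8.07, 7.92 and 7.86 with Lycorine, against 7.74, 6.99 and 8.18 with DMSO. Psmd4b separated by treatment in kdrl+ cells. The mean differences were 0.33 ± 0.14 for psmd2, 0.38 ± 0.16 for psmd4a, 0.36 ± 0.17 for psmd4b and 0.05 ± 0.15 for psmd1, with adjusted p-values from 0.159 to 0.864.

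The lid holds psmd14, the enzyme that removes ubiquitin from bound substrates, among structural subunits. Of its 8 genes 0 passed the test, and the median of the mean differences was 0.15 (-0.03 without the DMSO arrays numbered 2). Psmd12 in Runx+ cells had log2 intensities of 8.59, 8.68 and 8.32 with Lycorine and 8.54, 7.35 and 8.34 with DMSO. Psmd12 in kdrl+ cells had log2 intensities of 9.05, 8.46 and 8.46 with Lycorine and 7.89, 7.34 and 8.63 with DMSO. Psmd12 in negative cells had log2 intensities of 9.04, 8.62 and 8.72 with Lycorine and 8.66, 8.08 and 8.68 with DMSO. The values of psmd12 overlapped between treatments, and DMSO array 2 was the lowest of its group in each sort. Its mean difference was 0.49 ± 0.19 (adjusted p 0.126). In Runx+ cells psmd6 had log2 intensities of 9.38, 9.15 and 9.06 with Lycorine, against 9.34, 8.75 and 8.73 with DMSO. In kdrl+ cells psmd6 had log2 intensities of 9.49, 9.39 and 9.23 with Lycorine, against 9.61, 8.69 and 9.14 with DMSO. In negative cells psmd6 had log2 intensities of 9.71, 9.26 and 9.42 with Lycorine, against 8.94, 8.64 and 9.05 with DMSO. Psmd6 separated in negative cells, with a mean difference of 0.36 ± 0.14 (adjusted p 0.128). Psmd3 in Runx+ cells had log2 intensities of 8.87, 8.66 and 8.61 with Lycorine and 9.25, 8.87 and 8.60 with DMSO. Psmd3 in kdrl+ cells had log2 intensities of 8.45, 8.60 and 8.83 with Lycorine and 9.59, 8.71 and 8.75 with DMSO. Psmd3 in negative cells had log2 intensities of 8.66, 8.25 and 8.57 with Lycorine and 8.70, 8.28 and 8.66 with DMSO. Psmd3 had the most negative mean difference of the lid, -0.21 ± 0.14, and DMSO kdrl+ array 1 was its highest value.

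The paralogues psmd11a and psmd11b of another lid subunit had mean differences of opposite sign. By group means, both were lower with Lycorine in Runx+ cells and higher in kdrl+ cells, and their signs differed in negative cells. In Runx+ cells psmd11a had log2 intensities of 6.33, 6.35 and 5.80 with Lycorine, against 6.21, 6.30 and 6.39 with DMSO. In kdrl+ cells psmd11a had log2 intensities of 6.32, 6.55 and 6.65 with Lycorine, against 6.76, 5.79 and 6.78 with DMSO. In negative cells psmd11a had log2 intensities of 6.23, 5.85 and 6.52 with Lycorine, against 6.30, 6.23 and 6.80 with DMSO. Psmd11a overlapped in every sort, with a mean difference of -0.11 ± 0.16. Psmd11b in Runx+ cells had log2 intensities of 7.51, 7.73 and 6.93 with Lycorine and 7.60, 7.38 and 7.65 with DMSO. Psmd11b in kdrl+ cells had log2 intensities of 7.44, 7.66 and 7.57 with Lycorine and 7.23, 6.01 and 7.66 with DMSO. Psmd11b in negative cells had log2 intensities of 7.37, 7.02 and 7.58 with Lycorine and 7.54, 6.60 and 6.74 with DMSO. DMSO kdrl+ array 2 was the lowest psmd11b value of all arrays, and the mean difference was 0.27 ± 0.20. Neither passed the test. Psmd14, psmd13 and psmd8 had mean differences of 0.15, 0.15 and 0.03.

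The inducible beta subunits psmb9a and psmb10 replace catalytic subunits in immune cells, and psmb11a belongs to a type found in the thymus of mammals. All 5 genes of the class had negative mean differences, with a median of -0.25, and 0 of 5 passed the test in any sort or in the mean. By sort, the difference was positive for 3 of 5 in Runx+ cells, 0 in kdrl+ cells and 2 in negative cells. In Runx+ cells psmb10 had log2 intensities of 5.81, 5.58 and 6.21 with Lycorine, against 6.08, 5.86 and 5.40 with DMSO. In kdrl+ cells psmb10 had log2 intensities of 6.52, 6.18 and 6.25 with Lycorine, against 7.31, 6.86 and 6.56 with DMSO. In negative cells psmb10 had log2 intensities of 5.90, 5.83 and 5.65 with Lycorine, against 5.90, 6.23 and 5.95 with DMSO. Psmb10 lay wholly lower with Lycorine in kdrl+ cells and, by less than the second decimal shows, in negative cells. Psmb9a in Runx+ cells had log2 intensities of 4.37, 4.0 and 4.52 with Lycorine and 4.42, 4.42 and 3.68 with DMSO. Psmb9a in kdrl+ cells had log2 intensities of 3.94, 3.96 and 4.12 with Lycorine and 4.41, 5.0 and 4.28 with DMSO. Psmb9a in negative cells had log2 intensities of 4.20, 4.32 and 3.86 with Lycorine and 4.34, 4.49 and 4.44 with DMSO. The same held for psmb9a, whose intensities lay near or below the array medians. In Runx+ cells psmb11a had log2 intensities of 3.74, 3.22 and 4.46 with Lycorine, against 3.82, 3.97 and 3.83 with DMSO. In kdrl+ cells psmb11a had log2 intensities of 3.45, 3.69 and 3.26 with Lycorine, against 4.21, 3.79 and 3.75 with DMSO. In negative cells psmb11a had log2 intensities of 3.49, 3.76 and 3.69 with Lycorine, against 3.75, 3.70 and 4.31 with DMSO. Psmb11a separated in kdrl+ cells and overlapped in the other sorts. Mean differences were -0.25 ± 0.14 for psmb10, -0.25 ± 0.14 for psmb9a and -0.26 ± 0.15 for psmb11a, with adjusted p-values of 0.267, 0.28 and 0.296. In kdrl+ cells the differences were -0.59 ± 0.24, -0.56 ± 0.24 and -0.45 ± 0.27 (adjusted p 0.378, 0.404 and 0.522).

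Psmb12 in Runx+ cells had log2 intensities of 3.48, 3.24 and 3.44 with Lycorine and 3.26, 3.35 and 3.41 with DMSO. Psmb12 in kdrl+ cells had log2 intensities of 3.21, 3.68 and 3.65 with Lycorine and 3.29, 4.20 and 4.14 with DMSO. Psmb12 in negative cells had log2 intensities of 3.58, 3.64 and 3.45 with Lycorine and 3.52, 3.24 and 3.36 with DMSO. Psmb12 had its 2 highest values on DMSO kdrl+ arrays 2 and 3. In Runx+ cells psmb13a had log2 intensities of 2.97, 2.82 and 3.69 with Lycorine, against 3.53, 2.87 and 3.30 with DMSO. In kdrl+ cells psmb13a had log2 intensities of 3.24, 3.06 and 3.31 with Lycorine, against 3.34, 3.74 and 3.15 with DMSO. In negative cells psmb13a had log2 intensities of 3.0, 3.19 and 2.99 with Lycorine, against 2.90, 2.71 and 2.98 with DMSO. Psmb13a lay wholly higher with Lycorine in negative cells. Their mean differences were -0.05 ± 0.13 and -0.03 ± 0.14.

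The activator genes psme1 and psme2 encode the 2 subunits of a ring that caps the core and is induced by interferon in mammals, and psme4b is a paralogue of a nuclear activator. Psme1 in Runx+ cells had log2 intensities of 3.38, 4.46 and 4.21 with Lycorine and 3.73, 6.02 and 5.66 with DMSO. Psme1 in kdrl+ cells had log2 intensities of 7.10, 6.53 and 5.76 with Lycorine and 6.03, 5.92 and 7.12 with DMSO. Psme1 in negative cells had log2 intensities of 4.21, 3.87 and 3.71 with Lycorine and 3.79, 5.69 and 3.56 with DMSO. DMSO Runx+ arrays 2 and 3 and DMSO negative array 2 were high for psme1, above every Lycorine array of these sorts. The liver, pancreas and gut markers deviated by 1.76, 1.17 and 2.54 on those 3 arrays, and by -0.84, -0.74 and 0.00 on the other DMSO arrays of these sorts; their part was not tested. Psme1 had the largest negative difference of any member in Runx+ cells, -1.12 ± 0.58 (adjusted p 0.418), with a 95% interval of -2.35 to 0.11. In Runx+ cells psme2 had log2 intensities of 3.50, 3.71 and 4.08 with Lycorine, against 4.21, 3.92 and 4.44 with DMSO. In kdrl+ cells psme2 had log2 intensities of 4.66, 4.97 and 4.67 with Lycorine, against 4.21, 4.76 and 4.80 with DMSO. In negative cells psme2 had log2 intensities of 3.67, 3.92 and 3.93 with Lycorine, against 3.45, 4.20 and 4.21 with DMSO. Psme2 overlapped between treatments in every sort. Psme4b in Runx+ cells had log2 intensities of 7.37, 7.38 and 6.81 with Lycorine and 7.60, 7.38 and 7.07 with DMSO. Psme4b in kdrl+ cells had log2 intensities of 7.20, 7.30 and 7.38 with Lycorine and 7.47, 6.69 and 7.75 with DMSO. Psme4b in negative cells had log2 intensities of 6.96, 6.69 and 7.15 with Lycorine and 7.18, 7.20 and 7.18 with DMSO. Psme4b lay wholly lower in negative cells by a small step. The mean differences were -0.48 ± 0.34 for psme1, -0.12 ± 0.14 for psme2 and -0.14 ± 0.14 for psme4b, and 0 of 3 passed the test. Psmf1 is an inhibitor of the core. In Runx+ cells psmf1 had log2 intensities of 5.61, 5.63 and 6.12 with Lycorine, against 6.38, 5.26 and 4.68 with DMSO. In kdrl+ cells psmf1 had log2 intensities of 5.65, 5.34 and 5.31 with Lycorine, against 6.11, 5.45 and 5.51 with DMSO. In negative cells psmf1 had log2 intensities of 5.97, 5.81 and 5.63 with Lycorine, against 5.59, 5.26 and 5.48 with DMSO. Psmf1 separated in negative cells, DMSO Runx+ cells held both its highest and its lowest value, and the mean difference was 0.15 ± 0.18.

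Assembly chaperones build the particle and leave it. Psmd5, psmd9 and psmd10 act on the base, and 0 of 3 passed the test. Psmd9 in Runx+ cells had log2 intensities of 7.20, 7.08 and 6.98 with Lycorine and 7.35, 6.73 and 6.90 with DMSO. Psmd9 in kdrl+ cells had log2 intensities of 8.14, 7.41 and 7.67 with Lycorine and 7.91, 6.90 and 7.19 with DMSO. Psmd9 in negative cells had log2 intensities of 7.80, 7.29 and 7.37 with Lycorine and 7.12, 6.87 and 7.0 with DMSO. Psmd9 separated in negative cells, with a mean difference of 0.33 ± 0.15 (adjusted p 0.186). In Runx+ cells psmd10 had log2 intensities of 7.61, 7.46 and 6.72 with Lycorine, against 7.49, 6.85 and 7.11 with DMSO. In kdrl+ cells psmd10 had log2 intensities of 7.63, 7.43 and 7.42 with Lycorine, against 7.75, 6.52 and 7.67 with DMSO. In negative cells psmd10 had log2 intensities of 7.81, 7.03 and 7.51 with Lycorine, against 7.56, 7.20 and 7.26 with DMSO. The psmd10 values overlapped in every sort, with a mean difference of 0.13 ± 0.18. Psmd5 in Runx+ cells had log2 intensities of 6.96, 6.76 and 6.66 with Lycorine and 6.98, 6.90 and 6.45 with DMSO. Psmd5 in kdrl+ cells had log2 intensities of 6.51, 6.84 and 6.86 with Lycorine and 7.98, 6.52 and 6.90 with DMSO. Psmd5 in negative cells had log2 intensities of 7.36, 6.59 and 7.11 with Lycorine and 6.56, 6.83 and 6.71 with DMSO. DMSO kdrl+ array 1 was the highest psmd5 value, and the mean difference was -0.02 ± 0.17.

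The psmg genes encode the chaperones of the alpha ring, and 0 of 4 passed the test. In Runx+ cells psmg1 had log2 intensities of 6.77, 6.64 and 6.51 with Lycorine, against 7.19, 6.64 and 6.42 with DMSO. In kdrl+ cells psmg1 had log2 intensities of 6.30, 6.80 and 6.89 with Lycorine, against 7.76, 6.82 and 6.92 with DMSO. In negative cells psmg1 had log2 intensities of 6.72, 6.56 and 6.73 with Lycorine, against 6.83, 6.84 and 6.82 with DMSO. Psmg1 lay wholly lower with Lycorine in negative cells. Psmg2 in Runx+ cells had log2 intensities of 5.72, 5.72 and 5.80 with Lycorine and 5.62, 4.86 and 5.42 with DMSO. Psmg2 in kdrl+ cells had log2 intensities of 6.94, 6.31 and 6.51 with Lycorine and 7.22, 5.63 and 6.38 with DMSO. Psmg2 in negative cells had log2 intensities of 6.71, 5.91 and 5.77 with Lycorine and 5.84, 5.87 and 5.70 with DMSO. Psmg2 lay wholly higher in Runx+ cells. In Runx+ cells psmg3 had log2 intensities of 6.38, 6.12 and 6.31 with Lycorine, against 7.01, 6.60 and 6.15 with DMSO. In kdrl+ cells psmg3 had log2 intensities of 6.59, 6.17 and 6.49 with Lycorine, against 7.50, 6.0 and 6.81 with DMSO. In negative cells psmg3 had log2 intensities of 6.88, 6.28 and 6.47 with Lycorine, against 7.02, 6.40 and 6.51 with DMSO. Psmg3 overlapped in every sort, and all 4 psmg genes were highest on DMSO kdrl+ array 1. Mean differences were 0.32 ± 0.19 for psmg2, against -0.26 ± 0.15 for psmg1, -0.26 ± 0.18 for psmg3 and -0.24 ± 0.21 for psmg4.

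The 2 genes that share only the name were psmc3ip, a partner of the meiotic recombination machinery, and psme3ip1, a protein that binds an activator. Psmc3ip in Runx+ cells had log2 intensities of 5.98, 5.78 and 5.61 with Lycorine and 5.38, 4.84 and 5.54 with DMSO. Psmc3ip in kdrl+ cells had log2 intensities of 7.31, 6.47 and 6.36 with Lycorine and 5.26, 5.42 and 5.88 with DMSO. Psmc3ip in negative cells had log2 intensities of 6.30, 6.11 and 5.85 with Lycorine and 5.82, 5.71 and 5.85 with DMSO. Psmc3ip lay wholly higher with Lycorine in Runx+ and kdrl+ cells, and Lycorine kdrl+ array 1 was its highest value. It had the largest positive mean difference of the 53, 0.67 ± 0.15 (adjusted p 0.0211), and leaving out any single array kept the call. Without all 3 DMSO arrays numbered 2 the adjusted p was 0.0734, at a difference of 0.57. In Runx+ cells psme3ip1 had log2 intensities of 7.04, 7.17 and 6.87 with Lycorine, against 7.30, 6.59 and 6.60 with DMSO. In kdrl+ cells psme3ip1 had log2 intensities of 6.90, 6.83 and 7.09 with Lycorine, against 6.81, 6.50 and 6.86 with DMSO. In negative cells psme3ip1 had log2 intensities of 7.35, 7.0 and 7.25 with Lycorine, against 6.96, 6.56 and 7.08 with DMSO. Psme3ip1 overlapped in every sort, with a mean difference of 0.25 ± 0.13 (adjusted p 0.237).

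The difference of the Lycorine effect between sorts was tested directly. It passed for 0 of 53 members in each of the 3 pairs of sorts (0% of all genes in each). At an unadjusted p below 0.05 there were 0 members for Runx+ over negative cells (1.67% of all genes), 1 for kdrl+ over negative cells (2.66%) and 0 for Runx+ over kdrl+ cells (4.43%). The member with the lowest p was psmc3ip in kdrl+ over negative cells, with a difference of effects of 0.91 ± 0.37 (adjusted p 0.999). For psmb10 and psmb9a the effect in Runx+ cells exceeded that in kdrl+ cells by 0.68 ± 0.33 and 0.68 ± 0.34 (adjusted p 0.983 for both). The median SE of such a difference was 0.38 over all genes, against 0.27 for an effect within a sort.

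The second question was which members differed between sorts. The members called all lay outside the 35 subunits called 26S here, among them psmb10, an inducible beta subunit of the core. In the pairs with kdrl+ cells they were a smaller share than the genes called over all genes. Of those 35, 0 passed the test between any pair of sorts. In kdrl+ over negative cells of DMSO embryos 2 members were higher and 0 were lower (4.49% and 6.02% of all genes, 10.5% in either direction). The same contrast under Lycorine, added after the data were seen, called 2 higher and 0 lower (6.56% and 6.39% of all genes, 12.9% in either direction). Among the 35 26S subunits 0 were called in either treatment, with median differences of -0.04 under Lycorine and 0.02 in DMSO. Psme1 was called in both treatments.

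Psme1 read 7.10, 6.53 and 5.76 on Lycorine kdrl+ arrays, above every array of Lycorine Runx+ and negative cells as listed before. In DMSO the kdrl+ arrays read 5.92 to 7.12, and Runx+ array 2, at 6.02, lay among them. The Lycorine Runx+ and negative arrays, at 3.38 to 4.46, lay below every array median. So did DMSO negative arrays 1 and 3, at 3.79 and 3.56. The kdrl+ differences of psme1 are thus taken largely against values near background. The difference of kdrl+ over negative cells was 2.53 ± 0.58 under Lycorine (adjusted p 0.0079), and leaving out any single array kept this call. In DMSO it was 2.01 ± 0.58 (adjusted p 0.0352), and leaving out any of 3 arrays, DMSO negative 1 or 3 or DMSO kdrl+ 3, ended the call, with an adjusted p of at most 0.165. A fit of only the arrays compared ended it too (adjusted p 0.0759). DMSO negative array 2 was the one high array of its group, and without the DMSO arrays numbered 2 the difference was 2.91 (adjusted p 0.00495). Psme2, the partner subunit, was called under Lycorine. Its difference of kdrl+ over negative cells was 0.92 ± 0.25 under Lycorine (adjusted p 0.0189) and 0.63 ± 0.25 in DMSO (adjusted p 0.117). The Lycorine kdrl+ arrays of psme2, at 4.66 to 4.97, lay near the array medians. Its Lycorine Runx+ and negative arrays, at 3.50 to 4.08 and 3.67 to 3.93, lay below every array median. The Lycorine sort differences of psme2 are thus also taken against values near background. The Lycorine call of psme2 was lost without Lycorine negative array 1 (0.84, adjusted p 0.0838) and without Lycorine kdrl+ array 2 (0.82, adjusted p 0.101).

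Psmb10 rose in kdrl+ over negative cells of DMSO embryos, by 0.88 ± 0.24 (adjusted p 0.0232). Under Lycorine the difference was 0.53 ± 0.24 (adjusted p 0.177), and the Lycorine value minus the DMSO value was -0.35 ± 0.33 (adjusted p 0.999). The DMSO call was lost without DMSO negative array 1, DMSO negative array 3 or DMSO kdrl+ array 1, where the difference was 0.82, 0.84 and 0.68, and in a fit of only the arrays compared (adjusted p 0.133). Psmb12 and psmb13a had differences of 0.50 ± 0.23 and 0.55 ± 0.24 in DMSO (adjusted p 0.185 and 0.171). Markers of several cell types differed between the same sorts. All 10 endothelial markers were higher in the kdrl+ sort in each treatment. So were runx1, myb, lmo2 and ikzf1 among HSPC markers. Gata2b and gfi1aa were called higher in DMSO only and spi1b under Lycorine only, while meis1b was called lower in DMSO only. Of 8 leukocyte markers 7 were higher in the kdrl+ sort than in the negative sort under Lycorine and 6 in DMSO. The mean deviation of the leukocyte markers was 1.05 to 1.39 on Lycorine kdrl+ arrays and -1.04 to -0.81 on Lycorine negative arrays. In DMSO it was 1.32 to 2.11 on kdrl+ arrays and -0.54 to -0.39 on negative arrays. The part of these cell types in the sort differences was not tested.

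**Figure D5:**
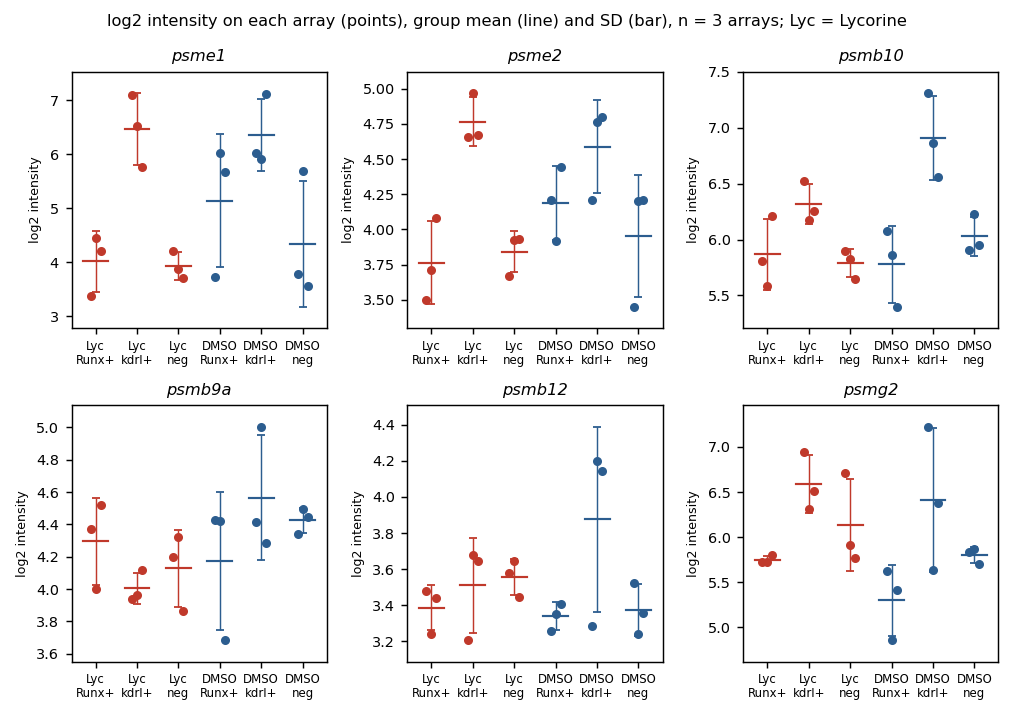
Log2 intensity (y axis) on each array (points) of activator, inducible and chaperone genes in Runx+, kdrl+ and negative cells under Lycorine (red) and DMSO (blue), with group means (lines) and SDs (bars, n = 3 arrays). Lycorine kdrl+ arrays of psme1 lie between 5.76 and 7.10, above all Lycorine Runx+ and negative arrays.

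Against Runx+ cells too, kdrl+ cells were the higher sort for every member called. The differences below are of Runx+ over kdrl+ cells. In DMSO 0 members were higher and 2 lower (4.33% and 4.1% of all genes, 8.43% in either direction), psmb10 with a difference of -1.13 ± 0.24 (adjusted p 0.00597) and psmg2 with -1.11 ± 0.33 (adjusted p 0.046). Leaving out any single array kept the psmb10 call, but a fit of only the arrays compared ended it (adjusted p 0.151). That of psmg2 was also lost in such a fit (adjusted p 0.289), with array weights (0.0702), with centred arrays (0.065) and with cyclic loess (0.0518). It was lost without DMSO Runx+ array 2 or 3 or DMSO kdrl+ array 1 or 3, with an adjusted p of at most 0.184 and a difference of -0.71 without DMSO kdrl+ array 1. Under Lycorine 0 were higher and 3 lower (5.64% and 7.12% of all genes, 12.8% in either direction), namely psme1 with a difference of -2.45 ± 0.58, psme2 with -1.0 ± 0.25 and psmc3ip with -0.92 ± 0.26 (adjusted p 0.0111, 0.0131 and 0.0269). The psme1 call was lost without Lycorine Runx+ array 1 or Lycorine kdrl+ array 1 (adjusted p at most 0.0563), and that of psme2 without Lycorine Runx+ array 1 or Lycorine kdrl+ array 2 (at most 0.0773). The psmc3ip call was lost without Lycorine kdrl+ array 1, Lycorine Runx+ array 2 or Lycorine Runx+ array 3 (at most 0.144). For Runx+ over negative cells 0 members were called under Lycorine (0.0104% of all genes) and 0 in DMSO (0.0052% of all genes). At an unadjusted p below 0.05 there were also 0 under Lycorine and 0 in DMSO (3.46% and 12.5% of all genes). Leukocyte markers differed likewise, with 7 of 8 lower in Runx+ cells in each treatment, and all 10 endothelial markers were lower there too. The contrasts between sorts in a treatment share arrays with each other and with the Lycorine contrasts.

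Other genes of the pathway gave few calls in the mean Lycorine contrast, which called 5.1% of all genes (2.67% without the DMSO arrays numbered 2). Of 11 genes that regulate proteasome transcription or process its regulators (such as nfe2l1a and ddi2) 0 were called, with a median of 0.09 (without the DMSO arrays numbered 2 the median was -0.10 and 1 was called, ngly1, a deglycosylating enzyme, at -0.58 with an adjusted p of 0.0398). Among 12 other proteins bound to the proteasome 1 was lower, zfand5b, an activator of the particle, with a difference of -0.64 ± 0.17 (adjusted p 0.0364). Of 5 ubiquitin and ubiquitin-activating genes 0 were called. Among 9 shuttle factors and cofactors of the p97 ATPase 1 was lower, rad23b, which carries ubiquitinated proteins to the proteasome, with a difference of -0.52 ± 0.14 (adjusted p 0.0463). None of these lists had a call within a single sort.

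The genes of class I antigen presentation, which display peptides made by the proteasome, had 4 of 14 lower and 0 higher, with a median of -0.25. Over all genes 2.81% were lower and 2.29% higher. The 4 were mhc1haa, mhc1uba, tapbp.2 and erap1a. The class I heavy chains mhc1haa and mhc1uba had differences of -0.60 ± 0.13 and -0.54 ± 0.15 (adjusted p 0.0196 and 0.0435). Tapbp.2, a tapasin that loads peptide, had -0.60 ± 0.15 (adjusted p 0.0282), and erap1a, a peptide-trimming enzyme, -0.57 ± 0.12 (adjusted p 0.0171). Mhc1uba read 2.63 to 3.89 over the arrays, below every array median. Tapbp.2 read 3.72 to 4.49 on the Lycorine arrays, also below every array median, and 3.80 to 5.42 on the DMSO arrays. Mhc1haa in Runx+ cells read 6.28, 6.51 and 5.99 with Lycorine and 7.44, 7.99 and 7.84 with DMSO. In kdrl+ cells mhc1haa read 6.12, 5.56 and 5.84 with Lycorine and 5.43, 5.90 and 5.83 with DMSO. In negative cells mhc1haa read 5.62, 5.51 and 5.73 with Lycorine and 5.71, 6.26 and 6.12 with DMSO. By group means, mhc1haa was lower with Lycorine in Runx+ and negative cells. In kdrl+ cells it was slightly higher, with means of 5.84 with Lycorine and 5.72 with DMSO. Without the DMSO arrays numbered 2 the count of calls was also 4 of 14, beside 2.67% of all genes. Erap1a, mhc1uba and tapbp.2 were among these 4, and mhc1haa was no longer called. B2m, the light chain of class I molecules, was called at -0.96 (adjusted p 0.0206). In the mean contrast of all arrays 2 of 8 leukocyte, 2 of 11 liver, pancreas and gut and 6 of 8 muscle markers were lower (2.81% of all genes). Of 6 neural markers 2 were higher (2.29% of all genes). Their part in the differences was not tested. Among 14 stress genes read beside the members, atf4a, a factor of the integrated stress response, was the 1 called, with a difference of -0.57 ± 0.16 (adjusted p 0.0447).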

How the data were processed

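Expression was read on 18 arrays with 65528 probe rows each. The authors deposited log2 values, taken to be RMA values since oligo, limma and RMA are the tools listed, per the submitters' processing notes. Their versions are not given in the sources used here. RNA was amplified before labelling, per the labels' protocols. Of the rows 20806 had 1 symbol, 855 several and 43867 none. Names were updated through a RefSeq table of another assembly for names only, which left 19247 genes, with no filter on dim genes. Genes were fitted with limma 3.58.1 in R 4.3.3 (6 group means, 18 arrays, eBayes, 2-sided, Benjamini-Hochberg over all genes, threshold 0.05), after a test on simulated data. There were 10 planned contrasts and 3 added ones between sorts under Lycorine. The members, lists, classes and tests were chosen with earlier results of these data known. Every array is printed for the 3 members of each class with the lowest p in the mean contrast, the inducible beta genes and paralogues. Sequence comparisons of promoters and proteins were not analysed here. The number of arrays limits the precision. Figures were drawn with matplotlib 3.10.9.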

Additional observations from a re-analysis of the deposited data

How the results depend on the processing

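Of the recomputed counts of members called, 206 lay within 1.5 times the main count, 24 were lower and 8 higher. Most of the 206 belong to contrasts with a main count of 0, where a count that stayed 0 was held to lie within. In the mean Lycorine contrast (3 in the main setting) the count was 5 with the replicate block, which added psma6l (adjusted p 0.0247) and psmc1a (0.0314). It was 8 with array weights and 0 without the 3 DMSO arrays numbered 2, and leaving out single arrays gave 1 to 6. In Runx+ cells array weights gave 1, and in kdrl+ cells leaving out single arrays gave 0 to 1. In kdrl+ over negative cells of DMSO (2) it was 0 with only the arrays compared and 0 to 2 without single arrays, and under Lycorine (2) it was 1 among genes with a mean above 5 and 1 to 2 without single arrays. In Runx+ over kdrl+ cells of DMSO (2) it was 0 with only the arrays compared, 1 with array weights, 1 with centred arrays, 1 with cyclic loess and 1 to 2 without single arrays. Under Lycorine (3) it was 5 with the replicate block, 5 with only the arrays compared, 6 with array weights and 1 to 3 without single arrays. The block moved no other count of members by over 1.5 times. It gives same-numbered arrays of both treatments 1 shared term. Across treatments their median correlation was -0.01 in the same sort and 0.03 between different sorts. The labels do not say what a shared replicate number stands for, and the fit without the block was kept because not every same-numbered pair of arrays correlated above 0.1. The deviations of same-numbered arrays from group means correlated at -0.09 to 0.42 in DMSO (median 0.33, against -0.17 for arrays of different number) and at -0.36 to 0.42 with Lycorine (median 0.02, against -0.11). Among the members followed by name under each setting, signs turned in the mean contrast for psmd5 (-0.02), which gave 0.023 with array weights and -0.122 to 0.12 without single arrays, and without the DMSO arrays numbered 2 for psmb5 (-0.121) and psmd10 (-0.071). Over all 53 members, leaving out those arrays turned 14 from positive to negative in the mean contrast, and 16 in kdrl+ cells. The means over members, 0.096, 0.055 and 0.151 in the 3 sorts, had the signs of the medians. Over all genes, the mean contrast called 982 genes, 514 to 2536 under other settings and 353 to 2395 without single arrays. Within a sort Lycorine called 0 genes in Runx+ cells (up to 952 in other settings and 1107 without single arrays), 10 in kdrl+ cells (1 to 13 and 0 to 424) and 0 in negative cells (up to 9 and 1). In each pair of ranges the second is without single arrays. Kdrl+ over negative cells gave 2023 in DMSO (730 to 2217, and 1091 to 2213) and 2492 under Lycorine (2272 to 5880, and 1145 to 1876), Runx+ over kdrl+ cells 1623 in DMSO (172 to 1867, and 708 to 1916) and 2455 under Lycorine (2162 to 6194, and 1012 to 1862), and Runx+ over negative cells 1 in DMSO (0 to 343, and 0 to 568) and 2 under Lycorine (1 to 257, and 0 to 1). The share of higher calls moved to 34.3% with cyclic loess, against 44.9%, in the mean contrast, and to 55.5% with centred arrays, against 42.8%, in kdrl+ over negative cells of DMSO. Centring moved the median of all genes to 0.08, against -0.02, in Runx+ over negative cells of DMSO. Psme2, psmb9a, psmb11a, psmb12 and psmb13a, with a mean at or under 5, lie nearest to background. Psme1, with a mean of 5.04, was as low on its Lycorine Runx+ and negative arrays. The cause of these changes was not tested.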
